A study of Mus musculus with 7 samples.

Results

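A set of 7 genes associated with microfold cells were followed in sorted medullary thymic epithelial cells (mTECs) of the mouse thymus: Gp2, Spib, Sox8, Tnfaip2, Pglyrp1, Marcksl1 and Anxa5. They were taken by symbol, whatever their values, and all 7 were found among the 55536 genes of the deposited table. RNA was measured by SMART-seq, a chemistry that copies full-length transcripts, in EPCAM+ mTECs sorted fresh from thymus, in 7 libraries. The 4 Cre-negative libraries, numbered 46, 48, 75 and 77 in their labels, have the genotype Cre(-) Ikzf1fl/fl Pou2f3-/-. The 3 Cre-positive libraries, numbered 45, 76 and 80, have the genotype Cre(+) Ikzf1fl/fl Pou2f3-/-. Ikzf1, which encodes Ikaros, is thus floxed in all 7 libraries, and Pou2f3, the factor that tuft cells require, is null in all 7. Cre driver, floxed exon and animal age are not stated in the labels. Nothing there ties the numbers to separate animals either, and p-values therefore reflect the spread among these samples, some of which may be technical.

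Microfold (M) cells are epithelial cells that overlie lymphoid follicles of the gut and airways and carry antigens from the lumen to immune cells beneath. They differentiate when the cytokine RANKL (Tnfsf11) binds its receptor RANK (Tnfrsf11a) and signals through TRAF6 and the non-canonical NF-kB pathway, which leads to expression of the Ets-family factor Spi-B (Spib) and the SoxE factor Sox8, and late in the process to the uptake receptor glycoprotein 2 (Gp2). In the thymus, microfold mimetic cells are a subset of mTECs that carry this programme, and mTECs as a whole also need RANK and NF-kB signals. The comparison asks how expression in mTECs that lack Pou2f3 differs between Cre genotypes when Ikzf1 is floxed, and is described here for the microfold genes.

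Several of these genes mark other cells too. Spib is expressed in B cells and plasmacytoid dendritic cells, Pglyrp1 is a peptidoglycan recognition protein of neutrophil granules, Gp2 is a zymogen granule protein of the exocrine pancreas, and Marcksl1 and Anxa5 are broadly expressed. In bulk RNA, fewer cells of a type and less RNA per cell cannot be told apart.

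The region just upstream of the RefSeq start of 4 genes is shown here because these are the receptor gene Gp2, its adjacent paralogue Umod, the lineage factor gene Spib and Pglyrp1, the 4 genes to which most of the results below refer. Sequences are from RefSeq (GRCm38.p6), read 5′ to 3′ on the strand of the gene and ending before the first exon at that start. The Pglyrp1 window precedes the first exon of the coding transcript but lies inside the gene span given below, in an intron of non-coding transcripts that GENCODE M21 starts further upstream. All 7 genes and Umod matched an entry in the promoter table. Capitals mark matches, on either strand, to 5 motifs: the Ikaros core TGGGAA, the Ets core GGAAGT, the Sox core ACAATG, the estrogen-related receptor element AAGGTCA, and the NF-kB consensus. Gp2 (chr7:119459286-119459522, minus strand), Umod (chr7:119479283-119479512, minus strand), Spib (chr7:44532072-44532321, minus strand) and Pglyrp1 (chr7:18884440-18884679, plus strand) read as follows.
Gp2: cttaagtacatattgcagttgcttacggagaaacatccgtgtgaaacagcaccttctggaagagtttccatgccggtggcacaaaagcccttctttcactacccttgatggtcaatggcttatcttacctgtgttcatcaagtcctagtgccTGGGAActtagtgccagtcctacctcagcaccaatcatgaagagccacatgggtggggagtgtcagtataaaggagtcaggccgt
Umod: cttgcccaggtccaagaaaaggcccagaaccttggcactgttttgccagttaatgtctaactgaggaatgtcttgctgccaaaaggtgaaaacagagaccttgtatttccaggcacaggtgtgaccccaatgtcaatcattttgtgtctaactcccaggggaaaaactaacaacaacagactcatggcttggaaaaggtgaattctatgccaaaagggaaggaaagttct
Spib: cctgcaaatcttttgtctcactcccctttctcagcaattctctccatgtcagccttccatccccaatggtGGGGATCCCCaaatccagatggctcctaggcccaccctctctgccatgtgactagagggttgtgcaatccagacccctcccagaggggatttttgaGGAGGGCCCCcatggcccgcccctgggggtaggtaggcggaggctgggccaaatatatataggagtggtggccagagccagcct
Pglyrp1: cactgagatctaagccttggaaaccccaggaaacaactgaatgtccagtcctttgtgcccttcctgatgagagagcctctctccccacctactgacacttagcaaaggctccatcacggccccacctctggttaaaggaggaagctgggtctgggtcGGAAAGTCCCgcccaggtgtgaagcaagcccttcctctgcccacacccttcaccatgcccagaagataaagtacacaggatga

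The Gp2 window of 237 bases held 1 match, to the Ikaros core, which occurs in 20.6% of windows of that length before the starts of 32841 promoters. The Spib window of 250 bases held 2 matches to the NF-kB consensus, which 7.25% of windows of that length hold at least once. The Pglyrp1 window of 240 bases held 1 match to the NF-kB consensus (6.97% of windows of that length). The Umod window of 230 bases held none of the 5 motifs. A match is a description of letters and not a measured binding site, and a window without one says only that these letters are not there.

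Read depth was similar across libraries, with 9815958 to 12599078 recovered reads in the Cre-negative libraries and 11383465 to 11623062 in the Cre-positive ones. Of 22878 genes tested with limma, 3150 passed at an adjusted p under 0.05, which is 13.8% (4.66% higher and 9.11% lower in Cre-positive libraries). Ikzf1, counted over the whole gene, was at 1118.7 in Cre-negative 46, 1149.5 in 48, 1146.8 in 75 and 1219.0 in 77, against 1310.3 in Cre-positive 45, 1828.6 in 76 and 1677.5 in 80 (normalized counts, limma adjusted p = 0.0916). Whole-gene counts include exons outside a floxed part, so they do not check the Cre labels. Pou2f3 had at most 27.9 normalized counts in any library. The mTEC markers Epcam, Krt5, Krt14, Aire, Cd80, H2-Aa, Cldn4 and Fezf2 were read in every library, whereas Ccl21a was listed at 0 in all 7. Of the 8 tested, 5 were called: Krt5 and Krt14 higher in Cre-positive libraries (log2 fold changes 0.59 and 1.51, limma adjusted p = 0.0475 and 0.00132), and Aire, Cd80 and Cldn4 lower (-0.56, -1.87 and -1.56, limma adjusted p = 0.0395, 0.000251 and 0.00125). The 5 markers of cortical epithelium summed to 5336.6 to 9104.4 normalized counts in Cre-negative and 12695.0 to 18686.6 in Cre-positive libraries. Only Ctsl of these 5 was called, higher (log2 fold change 1.47, limma adjusted p = 0.000358), and the other 4, Psmb11, Prss16, Ly75 and Cxcl12, had log2 fold changes from -0.97 to -0.31. None of the 5 was at 0 in every library. The part of these shifts in the levels of the microfold genes, the other M-cell genes and Nfkb1 was not tested.

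All 7 microfold genes were read in every library and all passed the filter, an average of 5 or more normalized counts. None of the 7 was called (0 of 7, beside 13.8% of all genes tested), and the 2 groups overlapped for each of them, beside 25.3% of all genes whose groups did not overlap. At an unadjusted p under 0.05 limma gave 1 of the 7, Pglyrp1, beside 28.4% of all genes. On recovered reads, edgeR called 0 of the 7 (13.7% of all genes) and DESeq2 0 of the 7 (19.5%). The mean log2 value was higher in Cre-positive libraries for 5 genes and lower for Pglyrp1 and Marcksl1, with a median log2 fold change of 0.25, where all genes tested had -0.10. With library total scaling the median over all genes moved to -0.30, and 4 of the 7 had a positive value. The intervals below give the sizes of difference that these 7 libraries leave possible.

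**Figure D1:**
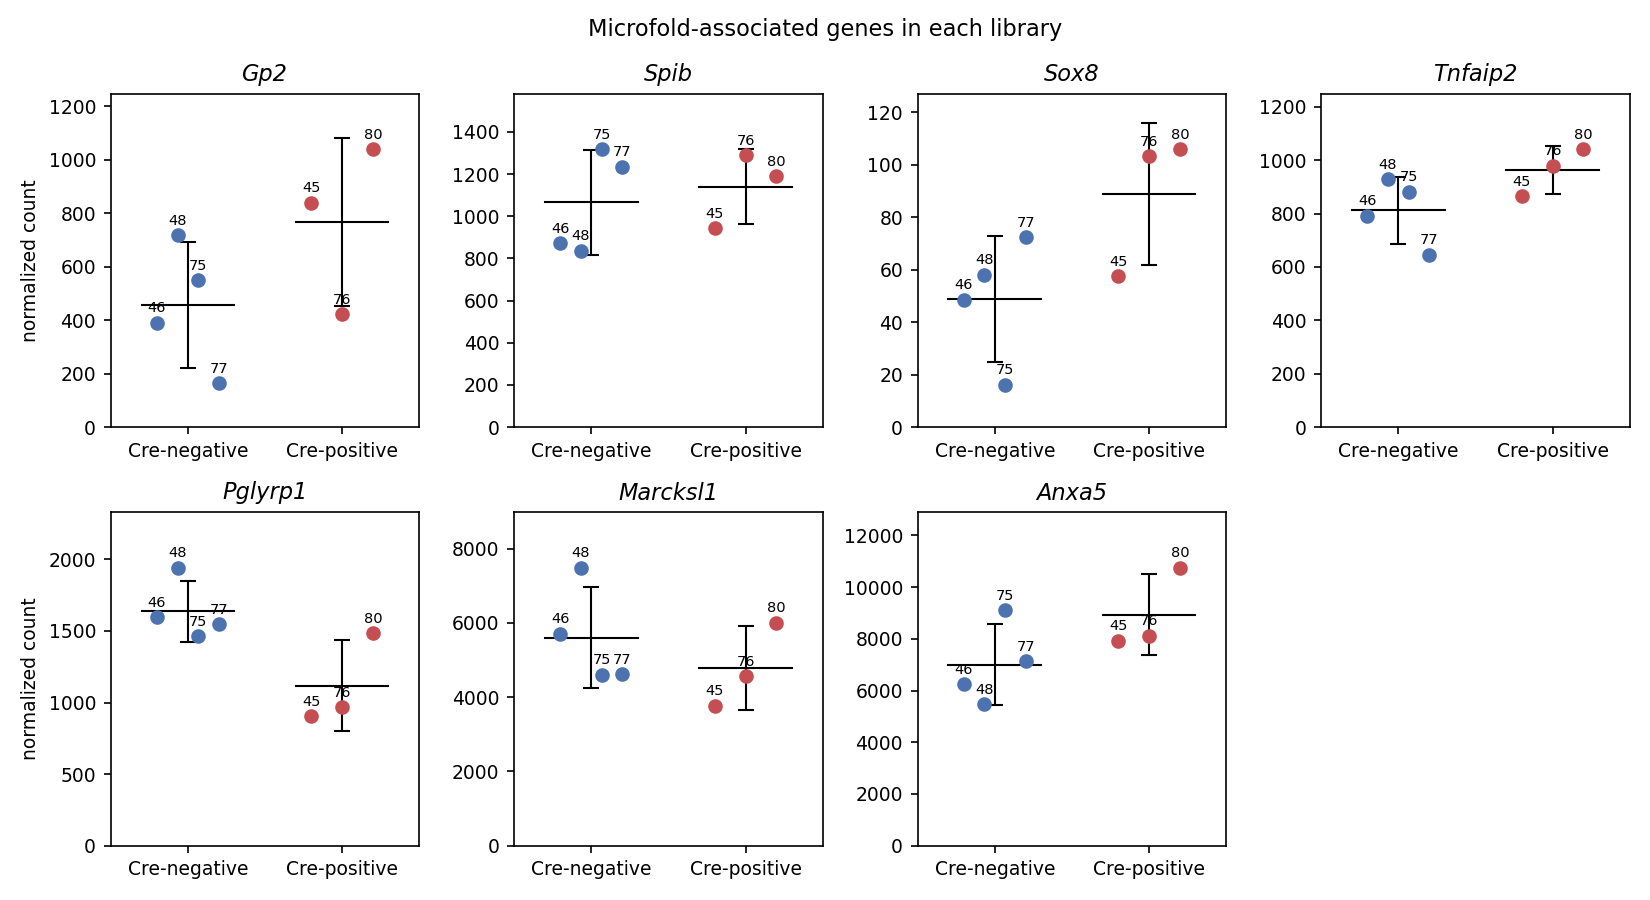
Normalized counts of each gene in each library, on linear axes that start at 0. Points are libraries with their label numbers, horizontal lines are group means and error bars are 1 SD (n = 4 Cre-negative and n = 3 Cre-positive). The 2 groups overlap in every panel, and Gp2 and Sox8 have the widest relative spread within the Cre-negative group.

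The genes differed widely in level. On a scale of recovered reads per kilobase of exon, divided by library size (RPKM), the Cre-negative level (SD, n = 4) was 383 ± 75.2 for Anxa5 and 343 ± 97.1 for Marcksl1. Pglyrp1 followed with 87.4 ± 15.0, Spib with 36.2 ± 7.80, Gp2 with 22.4 ± 12.3 and Tnfaip2 with 15.9 ± 2.75. Sox8 was the least abundant, with 1.55 ± 0.777. The ranges of Anxa5 and Marcksl1, of Spib and Gp2, and of Gp2 and Tnfaip2 overlapped, while Pglyrp1 and Sox8 stood clear of the genes next to them. All 7 genes were read in the same libraries, and differences in level between genes were not tested. In Cre-positive libraries the levels on the same scale were 426 ± 66.9 for Anxa5 and 252 ± 56.3 for Marcksl1 (SD, n = 3), which did not overlap, then 51.5 ± 13.6 for Pglyrp1, 33.8 ± 5.87 for Spib, 32.3 ± 12.6 for Gp2, 16.4 ± 1.55 for Tnfaip2 and 2.42 ± 0.756 for Sox8. The order of the 7 genes by mean level was the same in both groups.

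Spib encodes the Ets factor that M-cell maturation requires. Spib (ENSMUSG00000008193) lies on chromosome 7 from 44525993 to 44532071 (GRCm38). Spib normalized counts were 871.5 in Cre-negative 46, 837.2 in 48, 1318.8 in 75 and 1235.5 in 77, against 944.6 in Cre-positive 45, 1288.8 in 76 and 1190.6 in 80. The Cre-positive values lay inside the Cre-negative range. The log2 fold change on log2(normalized count + 1) was 0.12 (SE 0.21, 95% interval -0.34 to 0.57, limma adjusted p = 0.766), an interval from 0.791-fold to 1.48-fold. The value turned to -0.09 with library total scaling (adjusted p = 0.821). B-cell markers, which bear on Spib, were read at low levels in both groups: the summed level of 5 markers ran from 325.9 to 446.7 normalized counts in Cre-negative and from 240.3 to 473.3 in Cre-positive libraries, with 1 of 5, Pax5, called lower and none at 0 in every library. The 5 markers of plasmacytoid dendritic cells summed to 494.2 to 1349.5 and 286.5 to 838.1 normalized counts, with 1 of 5, Cox6a2, called lower. Most of this sum was Klk1 (265.7 to 1160.3 and 175.4 to 444.6), while Siglech had at most 24.3 in any library. The part of these cells in the level of Spib was not tested.

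The libraries with low and high Spib were those with low and high label numbers. Libraries numbered 45 to 48 had 837.2 to 944.6 normalized counts and those numbered 75 to 80 had 1190.6 to 1318.8, with each range holding both genotypes. In a limma fit with a term for the number range beside genotype, that term was 0.50 for Spib on the log2 scale (SE 0.16, unadjusted p = 0.00724), and it did not pass over all genes (adjusted p = 0.447). Of all genes tested, 0% were called for this term, 9.15% had an unadjusted p under 0.05 (2 of these 7) and 6.01% did not overlap between the ranges (1 of these 7). The labels do not say what the numbers stand for. Anxa5 had the next largest positive term, 0.37 (SE 0.15, unadjusted p = 0.0325, adjusted p = 0.505), with ranges of 5475.6 to 7923.7 and 7130.7 to 10752.0 normalized counts that overlapped.

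**Figure D2:**
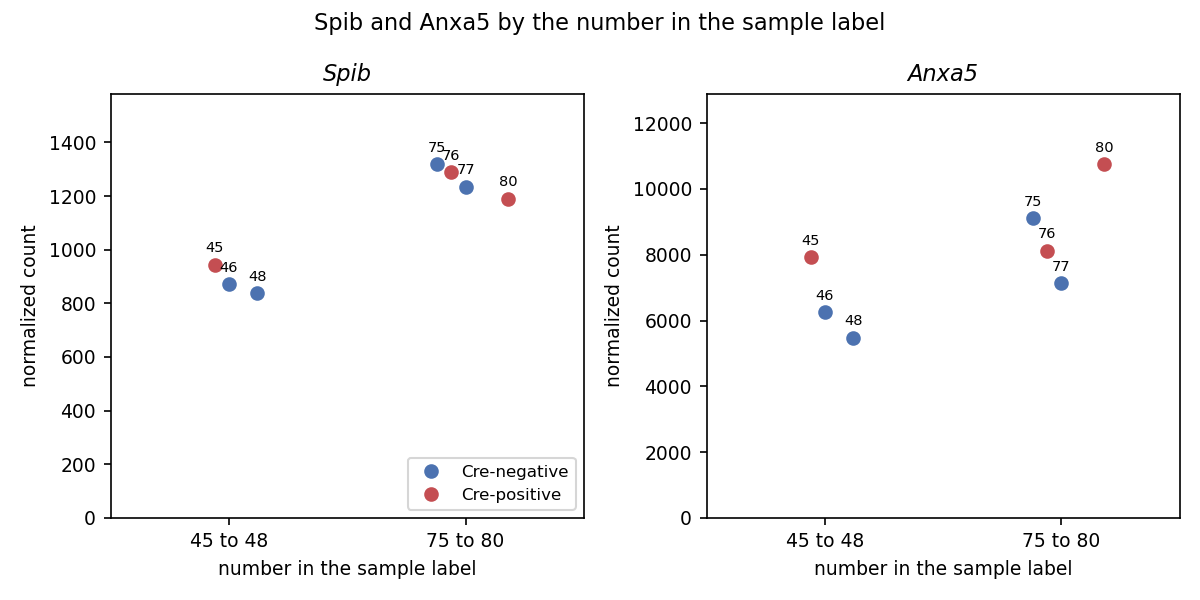
Normalized counts of Spib and Anxa5, on linear axes that start at 0, with libraries placed by the number in their label (45 to 48 on the left, 75 to 80 on the right) and coloured by genotype. For Spib the 3 libraries on the left lie at 837.2 to 944.6 and the 4 on the right at 1190.6 to 1318.8; for Anxa5 the 2 sets overlap.

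Within the number ranges, genotype differences of the log2 means were 0.15 for Spib among libraries 45, 46 and 48 and -0.04 among 75, 76, 77 and 80. They were 0.66 and 1.14 for Gp2, 0.11 and 1.57 for Sox8, 0.01 and 0.42 for Tnfaip2, -0.96 and -0.33 for Pglyrp1, and 0.44 and 0.21 for Anxa5. Marcksl1 had opposite signs in the 2 ranges, with -0.79 and 0.18. The lower range has a single Cre-positive library, so these are values without a test.

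Sox8 encodes a SoxE factor that acts with Spi-B in M-cell maturation. Sox8 (ENSMUSG00000024176) lies on chromosome 17 from 25565892 to 25570686. Sox8 normalized counts were 48.6 in Cre-negative 46, 58.1 in 48, 16.2 in 75 and 72.4 in 77, against 57.5 in Cre-positive 45, 103.1 in 76 and 105.9 in 80. Libraries 76 and 80 lay above every Cre-negative library, and library 45 lay among them. The log2 fold change was 0.98 (SE 0.54, 95% interval -0.18 to 2.14, limma adjusted p = 0.253), so differences from 0.886-fold to 4.41-fold lie within the interval. It rests on 18 to 103 reads per library, and without Cre-negative 75, the lowest, it was 0.53. The antisense gene 2810468N07Rik shares 329 of the 3118 exon bases of Sox8 and rose from 34.5 to 145.9 normalized counts in Cre-negative libraries to 356.3 to 545.0 in Cre-positive ones (log2 fold change 2.55, limma adjusted p = 0.00252). It is not stated whether counting used strand, so reads of Sox8 and of this antisense gene cannot be told apart in the shared bases.

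Gp2 encodes the receptor by which M cells take up bacteria that carry FimH, and it marks mature M cells. Gp2 (ENSMUSG00000030954) lies on chromosome 7 from 119442537 to 119459285. Gp2 normalized counts were 390.5 in Cre-negative 46, 718.1 in 48, 549.5 in 75 and 164.4 in 77, against 839.1 in Cre-positive 45, 421.6 in 76 and 1039.1 in 80. Cre-positive 45 and 80 lay above every Cre-negative library, and Cre-positive 76 lay among them. Within the Cre-negative group the highest value was 4.37 times the lowest, against 1.58 times for Spib and 1.44 times for Tnfaip2. The log2 fold change was 0.84 (SE 0.44, 95% interval -0.10 to 1.78, limma adjusted p = 0.227), and without Cre-negative 77 it was 0.42. Markers of pancreatic acinar cells, which also express Gp2, had a summed level of 512.2 to 985.4 normalized counts in Cre-negative and 88.1 to 251.1 in Cre-positive libraries. Of these, 5 of 7 were called lower (beside 9.11% of all genes) and none was at 0 in every library. Cpa1 and Rbpjl were not called (log2 fold changes -2.95 and -0.01, limma adjusted p = 0.0592 and 0.994). The part of such transcripts in the level of Gp2 was not tested.

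Umod, the gene adjacent to Gp2, rose where Gp2 was not called. Umod encodes uromodulin, a zona pellucida domain protein related to glycoprotein 2 and also known from M cells, and lies 3425 bases from Gp2 on the same strand (chromosome 7, 119462711 to 119479282). Umod normalized counts were 48.6 in Cre-negative 46, 27.6 in 48, 13.5 in 75 and 4.1 in 77, against 289.4 in Cre-positive 45, 92.1 in 76 and 257.4 in 80, with a log2 fold change of 3.41 (SE 0.72, limma adjusted p = 0.00784), or 2.80 without Cre-negative 77. The log2 ratio of Umod to Gp2 averaged -4.48 ± 1.03 (SD, n = 4) without Cre and -1.91 ± 0.34 (SD, n = 3) with it, and the groups did not overlap. The difference of 2.57 reached p = 0.0571 in a two-sided exact permutation test that doubles the smaller tail. This is the lowest value that test can give for 4 libraries against 3. This pair was compared with the value of Umod already known. Further along, Pdilt, Acsm5 and Acsm2 (27301, 60177 and 95054 bases from Gp2) were not called, with log2 fold changes of 1.44, 1.38 and 1.69 (limma adjusted p = 0.335, 0.449 and 0.226).

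**Figure D3:**
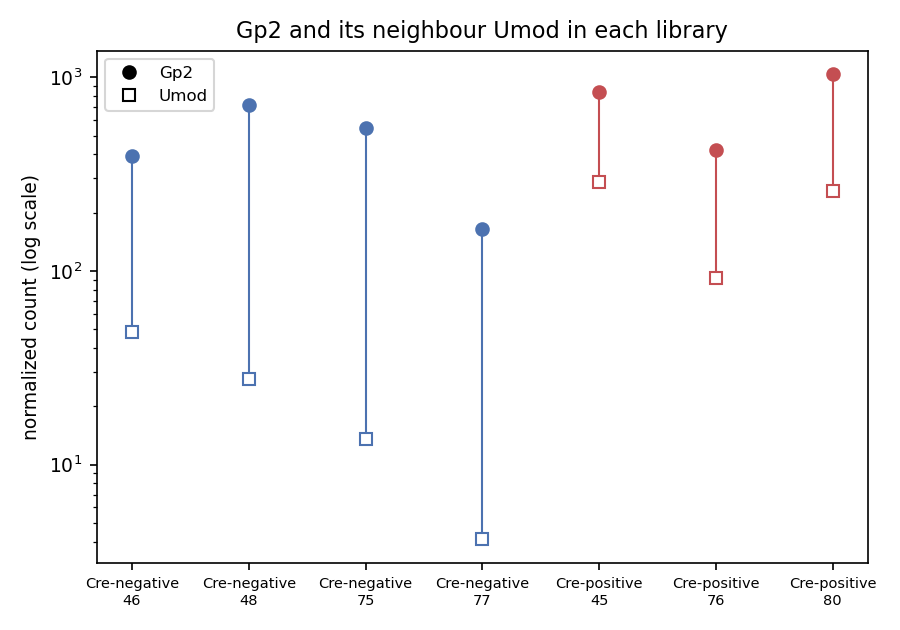
Normalized counts of Gp2 (filled circles) and Umod (open squares) in each library, on a log axis, with a line joining the 2 genes of a library. Umod lies at 4.1 to 48.6 in the 4 Cre-negative libraries and at 92.1 to 289.4 in the 3 Cre-positive ones, while the Gp2 values of the 2 groups overlap.

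Tnfaip2 encodes M-Sec, a protein that promotes membrane nanotubes together with the small GTPase RalA and the exocyst. Tnfaip2 (ENSMUSG00000021281) lies on chromosome 12 from 111442469 to 111455018. Tnfaip2 normalized counts were 791.1 in Cre-negative 46, 928.9 in 48, 881.0 in 75 and 645.1 in 77, against 864.2 in Cre-positive 45, 978.4 in 76 and 1041.2 in 80. It had the smallest spread of the 7 genes within the Cre-positive group, a coefficient of variation of 9.33%, and the groups overlapped through library 45. The log2 fold change was 0.25 (SE 0.19, 95% interval -0.15 to 0.66, limma adjusted p = 0.408). Tnfaip2 shares 314 exon bases with the antisense gene Gm40578, which is not analysed here, so part of its reads is uncertain in the same way as for Sox8. Of 10 exocyst and Ral genes, 1 was called higher and 1 lower (beside 4.66% and 9.11% of all genes). Rala, the gene of RalA, rose from 2193 to 3636 mean normalized counts with a log2 fold change of 0.78 (limma adjusted p = 0.0346), which was lost with library total scaling (adjusted p = 0.102) and on leaving out Cre-negative 48, Cre-negative 75 or any 1 of the 3 Cre-positive libraries (0.0608 to 0.0898). Exoc2, an exocyst subunit that binds RalA, fell by 1.02 on the log2 scale (limma adjusted p = 0.00497).

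Pglyrp1, which encodes a peptidoglycan recognition protein with antibacterial activity, came nearest to a call. Pglyrp1 (ENSMUSG00000030413) lies on chromosome 7 from 18871331 to 18890459. Pglyrp1 normalized counts were 1593.9 in Cre-negative 46, 1942.4 in 48, 1463.9 in 75 and 1546.7 in 77, against 902.8 in Cre-positive 45, 967.4 in 76 and 1484.4 in 80. Libraries 45 and 76 lay below every Cre-negative library, and library 80 exceeded only Cre-negative 75. The log2 fold change was -0.58 (SE 0.20, 95% interval -1.01 to -0.15), or 0.670-fold, and it did not pass (limma adjusted p = 0.0750; exact two-sided permutation p = 0.114). Without Cre-positive 80 it was -0.80 and was called (limma adjusted p = 0.0173), and with library total scaling it was -0.78 and was called (0.0209), over 14 alternatives in which its adjusted p ran from 0.0173 to 0.247. Neutrophil markers moved in the same direction: 6 of 7 were called lower (beside 9.11% of all genes), and none was at 0 in every library. Their summed level was 29991.2 to 48164.8 normalized counts in Cre-negative and 4861.8 to 7152.0 in Cre-positive libraries. Most of the sum was S100a8 (22386.0 to 35197.4 and 4110.8 to 5791.2), followed by S100a9. Of the others, Camp had at most 2022.1 normalized counts in any library, Ly6g 870.2, Mpo 306.7 and Ngp 257.6. Elane, the marker not called, had at most 44.5. The part of neutrophil RNA in the level of Pglyrp1 was not tested.

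Its relatives were mostly low. Pglyrp2, which encodes a peptidoglycan amidase, had 552.1 to 765.1 normalized counts in Cre-negative and 539.2 to 761.9 in Cre-positive libraries (limma adjusted p = 0.988). Pglyrp4 had 20.1 to 60.1 and 6.2 to 16.7 normalized counts, without overlap, and was not called by limma (adjusted p = 0.0770) but was called lower by DESeq2 (adjusted p = 0.0168). Pglyrp3 had at most 5.4 normalized counts in any library and was not tested.

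Marcksl1 encodes a MARCKS-like substrate of protein kinase C that binds actin, and Anxa5 encodes annexin A5, which binds phosphatidylserine in membranes. Marcksl1 (ENSMUSG00000047945) lies on chromosome 4 from 129513581 to 129515985. Marcksl1 normalized counts were 5702.7 in Cre-negative 46, 7487.0 in 48, 4598.8 in 75 and 4619.4 in 77, against 3767.0 in Cre-positive 45, 4565.5 in 76 and 5999.9 in 80. Libraries 45 and 76 lay below every Cre-negative library and library 80 lay among them (log2 fold change -0.23, SE 0.21, 95% interval -0.67 to 0.22, limma adjusted p = 0.511). Anxa5 (ENSMUSG00000027712) lies on chromosome 3 from 36448923 to 36475894. Anxa5 normalized counts were 6250.7 in Cre-negative 46, 5475.6 in 48, 9105.8 in 75 and 7130.7 in 77, against 7923.7 in Cre-positive 45, 8124.5 in 76 and 10752.0 in 80. All 3 Cre-positive values exceeded those of Cre-negative 46, 48 and 77 but 2 of them lay below that of Cre-negative 75 (log2 fold change 0.37, SE 0.19, 95% interval -0.04 to 0.77, limma adjusted p = 0.220). Of 11 other annexins 1 was called, beside 13.8% of all genes tested. This was Anxa10, which fell by 1.56 on the log2 scale from 418.7 to 1068.5 down to 204.8 to 301.0 normalized counts (limma adjusted p = 0.00476). Marcks, the paralogue of Marcksl1, was not called (log2 fold change -0.28, limma adjusted p = 0.278).

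Whether the 7 genes vary together cannot be settled from 7 libraries. Of 21 pairs, the highest correlation of log2 values was between Gp2 and Tnfaip2 (Pearson r = 0.84, exact permutation p = 0.0222, adjusted over 21 pairs 0.233; Spearman rho = 0.68, exact permutation p = 0.110, adjusted 0.619; n = 7 libraries). Without Cre-negative 77 and Cre-positive 80, the 2 libraries farthest from the median of Gp2, r was 0.14, so the relation rests on those libraries. Pglyrp1 and Marcksl1 had r = 0.81 (exact permutation p = 0.0194, adjusted 0.233; rho = 0.89, exact permutation p = 0.0123, adjusted 0.258), and 0.81 without Cre-positive 45 and 76. No pair passed after adjustment.

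Among 12825 genes averaging 50 or more normalized counts, those with the profile most like Gp2 over the 7 libraries were Adat2, Pcolce and Dagla. Likeness was the root mean square difference between log2 profiles centred on their means, and these 3 had 0.28, 0.28 and 0.29, where Gp2 itself varied by 0.82 about its mean. The 3 genes most like Spib were Prkcz, Itgb1bp1 and Ddrgk1, with 0.09, 0.09 and 0.09, where Spib varied by 0.26. The nearest of the other 6 microfold genes was Tnfaip2 for Gp2, at rank 650, and Anxa5 for Spib, at rank 235.

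The pathway that drives M-cell differentiation was read at both ends. Of 13 RANK to NF-kB genes, 1 was called lower and none higher (beside 9.11% and 4.66% of all genes), with a median log2 fold change of -0.37. Tnfrsf11a, the gene of RANK, had 1634.1 to 1807.6 normalized counts in Cre-negative and 1781.6 to 2206.1 in Cre-positive libraries (log2 fold change 0.15, limma adjusted p = 0.575). Tnfsf11, the gene of RANKL, was near the bottom of the list with 10.8 to 69.6 and 3.1 to 33.0 normalized counts (limma adjusted p = 0.199). Tnfrsf11b, which encodes the decoy receptor osteoprotegerin, had 2172.8 to 4263.0 and 1449.1 to 2580.6 normalized counts (log2 fold change -0.74, limma adjusted p = 0.0608). Of the NF-kB genes, Nfkb1 was called: it fell by 1.02 on the log2 scale, from 1308.0 to 1740.6 down to 597.9 to 864.2 normalized counts (limma adjusted p = 0.00421). The non-canonical pair Relb and Nfkb2 had log2 fold changes of -0.16 and -0.33 (limma adjusted p = 0.575 and 0.229), and Map3k14, which encodes the kinase NIK upstream of them, had -0.67 (limma adjusted p = 0.0685). The groups did not overlap for 5 of the 13 genes, Map3k14, Ikbkb, Nfkb2, Nfkb1 and Rela, beside 25.3% of all genes tested.

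Of 15 other genes known from M cells, 6 rose in Cre-positive libraries and none fell (beside 4.66% and 9.11% of all genes), with a median log2 fold change of 0.56. This list was chosen with earlier results of these data known, so its count is a description and not a test of the M-cell programme. Scg5, which encodes a secretory granule chaperone, had 499.4 to 824.4 normalized counts in Cre-negative and 4459.8 to 6013.4 in Cre-positive libraries (log2 fold change 2.92, SE 0.20, limma adjusted p = 7.52e-06). Clu, which encodes the extracellular chaperone clusterin, had 2318.0 to 3571.6 and 11828.7 to 15653.7 normalized counts (log2 fold change 2.16, SE 0.19, limma adjusted p = 2.71e-05). For both genes the lowest Cre-positive library lay far above the highest Cre-negative one. Which of the sorted cells the reads of these listed genes came from was not tested.

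Tnfrsf12a, the gene of the TWEAK receptor, had 91.9 to 134.4 and 317.7 to 532.5 normalized counts (log2 fold change 2.08, limma adjusted p = 6.13e-04), and Aif1, which encodes an actin-binding protein known from macrophages and M cells, had 378.4 to 533.9 and 1062.5 to 1287.4 (log2 fold change 1.45, limma adjusted p = 5.15e-04). The macrophage markers gave mixed values beside Aif1: of 5, Lyz2 was called higher and Adgre1 lower (beside 4.66% and 9.11% of all genes). None was at 0 in every library. Their summed level was 5201.8 to 6871.8 normalized counts in Cre-negative and 7284.3 to 11485.8 in Cre-positive libraries. The sum was carried by Lyz2, whose Cre-positive mean was 1.61 times the Cre-negative one, against 0.974 for Csf1r, 0.715 for C1qb, 0.678 for C1qa and 0.128 for Adgre1. The part of macrophage RNA in the level of Aif1 was not tested. Prnp, which encodes the prion protein, an uptake receptor on M cells, rose by a log2 fold change of 0.56 (limma adjusted p = 0.0208), from 5794.3 to 6839.8 up to 8150.5 to 10215.4 normalized counts. Prnp lost its call with library total scaling (adjusted p = 0.116) and on leaving out any 1 of 4 libraries, Cre-negative 75, Cre-negative 77, Cre-positive 76 and Cre-positive 80 (0.0526 to 0.0782). The other called gene was Umod, described above beside Gp2.

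The chemokine genes of the M-cell programme were not called. Ccl20, whose product attracts CCR6-bearing lymphocytes, had 3854.3 to 6724.6 normalized counts in Cre-negative and 3007.3 to 9289.1 in Cre-positive libraries (log2 fold change 0.08, limma adjusted p = 0.898). Ccl9 had 741.3 to 1968.0 in Cre-negative libraries and 874.6, 3210.5 and 4163.6 in Cre-positive 45, 76 and 80 (log2 fold change 0.97, limma adjusted p = 0.173). Ccl6 had 251.2 to 1407.6 and then 421.1, 1612.3 and 2832.8 (log2 fold change 1.16, limma adjusted p = 0.221). For all 3 genes Cre-positive 76 and 80 lay above every Cre-negative library and Cre-positive 45 did not. Esrrg, the gene of the nuclear receptor ERR gamma, which acts upstream of Sox8 and Gp2 in M cells, had a log2 fold change of 0.47 (limma adjusted p = 0.448).

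**Figure D4:**
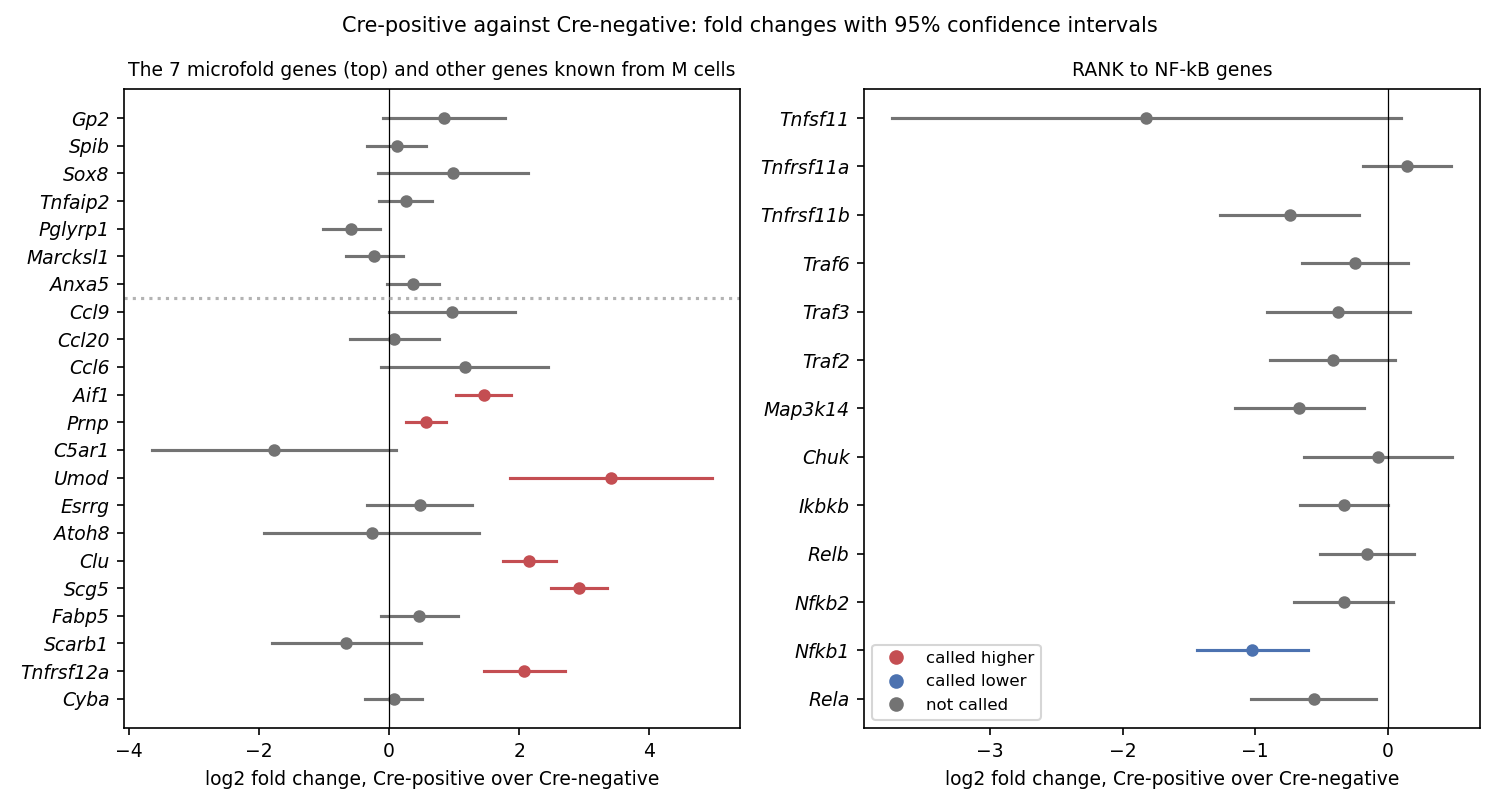
Log2 fold change of Cre-positive over Cre-negative libraries (points) with 95% confidence intervals (lines) from limma, for the 7 microfold genes and 15 other genes known from M cells (left, split by a dotted line) and for 13 RANK to NF-kB genes (right). None of the 7 genes above the dotted line was called, 6 of the 15 below it were called higher, and Nfkb1 is the only call on the right. The lists were chosen with earlier results of these data known.

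Paralogues of the 2 transcription factors behaved as follows. Of 9 other Ets-family genes 1 was called lower, beside 9.11% of all genes tested. This was Etv6, with 1532.3 to 1849.8 normalized counts in Cre-negative and 1107.6 to 1154.6 in Cre-positive libraries (log2 fold change -0.53, limma adjusted p = 0.0399). The call was lost when any single library was left out (0.0545 to 0.109). Ehf, an epithelial member, had 869.9 to 1070.2 and 966.4 to 1047.4 normalized counts (limma adjusted p = 0.839). Of the SoxE genes, Sox9 had 1480.1 to 1680.1 normalized counts in Cre-negative libraries and 2716.8, 3012.3 and 1656.7 in Cre-positive 45, 76 and 80. It was not called (log2 fold change 0.59, limma adjusted p = 0.0731) but was without Cre-positive 80 (0.85, limma adjusted p = 0.00699) and by DESeq2 (adjusted p = 0.0435). Sox10 had 17.7 to 43.4 and 0 to 9.0 normalized counts and was not called (limma adjusted p = 0.0766), but was called lower with a term for the label number range (limma adjusted p = 0.0364) and by DESeq2 (adjusted p = 0.0471). Of the 4 zona pellucida domain relatives of Gp2, 1 was called higher and 1 lower (beside 4.66% and 9.11% of all genes). Umod rose, and Dmbt1 fell by 2.99 on the log2 scale, from 68.5 to 137.9 down to 6.0 to 23.0 normalized counts (limma adjusted p = 0.00369). Cuzd1 and Tecta were not called, with log2 fold changes of -2.85 and -1.73 (limma adjusted p = 0.0521 and 0.247).

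In the authors' deposited table, none of the 7 has an adjusted p under 0.05, and the smallest is 0.0798 for Pglyrp1. Turned to Cre-positive over Cre-negative, the log2 fold changes of the authors' deposited table run from -0.55 for Pglyrp1 to 0.87 for Sox8, with 0.75 for Gp2 and 0.10 for Spib.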

How the data were processed

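The authors deposited 1 table of 55536 genes with normalized counts per library, a signal made by dividing gene counts by 1 size factor per library and rounded to 1 decimal, per the file headers and the values. It also holds the authors' log2 fold change and adjusted p-value. Per the submitters' processing notes STAR 2.7.9a, DESeq2 and build GRCm39 were used. Which program counted reads, and whether it used strand, is not stated. Gene positions match GENCODE M21 (GRCm38) for 49958 of 52489 genes (95.2%) and are given on GRCm38. Symbols missing for 3047 IDs were taken from a table of IDs.

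Whole reads were recovered by dividing by the worth of 1 read in each library; 100% of values were whole within 0.0501 normalized counts. The main test was limma-trend, fitted to log2(normalized count + 1) by genotype alone, for the 22878 genes that averaged 5 or more normalized counts (32658 left out) and Benjamini-Hochberg adjustment over all of them. A gene is called at an adjusted p under 0.05. Fold changes are Cre-positive over Cre-negative on that scale and are shrunk for genes near 0. Exact permutation tests are two-sided. Those between groups double the smaller tail, so that 4 against 3 cannot go below 0.0571, and those of pairs of genes count absolute correlations. Alternatives were a pseudocount of 0.5, no filter, library total scaling, edgeR, DESeq2 and limma-voom on recovered reads, a term for the label number range, and each library left out. The fits were also run on simulated reads with as many genes raised as lowered, unlike the split of calls here, so that run does not check this split.

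The genes and lists were chosen with earlier results of these data known. Named from each list are its called genes, at most 6, or else the 2 most abundant; other genes were named after their values were seen. Fits ran in R 4.3.3 with DESeq2 1.42.0, edgeR 4.0.16 and limma 3.58.1. Tables and exact tests were made in Python 3.11.15 with scipy 1.17.1, pandas 2.3.3 and numpy 2.4.6, and plots with matplotlib 3.10.9.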

Additional observations from a re-analysis of the deposited data

Results flagged for a closer look

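Among the 4 Cre-negative libraries, 2 values of the named genes stood far from the other 3 by Dixon's criterion. Tnfrsf12a had 134.4 normalized counts in Cre-negative 77, above 91.9 to 98.5 in the others, and Etv6 had 1849.8 in Cre-negative 48, above 1532.3 to 1571.5. None of the 7 microfold genes had such a value. The criterion was applied to 24 results, and chance flags about 1 in 20 groups.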

How the results depend on the processing

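No paired analysis was possible because the groups share no label numbers. None of the 7 microfold genes was called under 12 of 14 alternatives; with library total scaling 1 was called, Pglyrp1 (log2 fold change -0.78), and with each library left out in turn the count ran from 0 to 1, the 1 being Pglyrp1 without Cre-positive 80, where its log2 fold change ran from -0.80 to -0.44. The sign of each of the 7 genes was kept under every alternative, except that Spib turned to -0.088 with library total scaling. Pglyrp2 turned from -0.01 to a range of -0.11 to 0.14 when libraries were left out, with 0.06 and 0.02 without Cre-negative 46 and 48 and 0.14 without Cre-positive 45. Of the 66 other listed genes tested, 12 were called, beside 13.8% of all genes tested. DESeq2 called 20 of the 67 listed genes, beside 19.5% of all genes with an adjusted p. Over all genes, 3150 were called, and 1990 to 2696 with 1 library left out, the lowest without Cre-negative 46. Scaling by library totals gave 583 higher and 2636 lower calls, where the reported split is 1066 and 2084 (18.1% and 33.8% higher), and limma-voom called 1120 higher and 1352 lower. With libraries left out the higher calls ran from 600 to 1008 and the lower calls from 1315 to 1759. The causes of these shifts were not tested. Of the 7 microfold genes, Sox8 had the fewest reads, 18 to 103 per library.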
